A study of Mus musculus with 8 samples.

Results

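The macrophage colony-stimulating factor receptor gene Csf1r, its ligand genes Csf1 and Il34, and 5 transcription factor genes of the macrophage lineage (Spi1, Irf8, Runx1, Maf and Ikzf1) were followed in E12.5 mouse brain. The genes were chosen by name, and every probe set annotated to 1 of them alone was taken, which gave 25 of 45037 probe sets and 8 of 18193 genes. Total brain RNA was read on 1-colour Affymetrix Mouse 430_2 arrays, on which a transcript is detected by 1 or more sets of short probes. The comparison asks how expression differed between embryos with and without REST, a repressor of neuronal genes, in the neural lineage. Both groups were E12.5 embryos of strain C57/BL6 and were homozygous for Rest GTi, an inverted gene trap in Rest that leaves normal splicing intact. The 4 Cre+, Rest GTi/GTi arrays (Cre+ hereafter) also carried the Nestin Cre transgene, active in neural progenitors, which turns the trap back so that it interrupts Rest. The 4 control arrays were from Rest GTi/GTi littermates without Cre, so Cre and the loss of REST cannot be told apart here. The arrays are labelled as biological replicates, but no source says how many embryos went into each, so the p-values measure the spread between these arrays.

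Csf1r encodes a receptor tyrosine kinase on macrophages and their precursors, and signalling through it keeps microglia, the macrophages of the brain, alive and dividing. Its ligands are CSF1, made by many tissues, and IL-34, made largely by neurons and skin. Microglia descend from yolk sac progenitors that depend on RUNX1 and then on PU.1, the product of Spi1, and on its partner IRF8. Nestin Cre is meant to act in the neural lineage, to which microglia do not belong.

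All values are intensities after scaling the arrays to a common distribution. A log2 fold change is Cre+ minus control on the log2 of the intensity plus 16, which makes the changes of dim probe sets smaller than the ratio of their intensities. A probe set was called changed at an adjusted p under 0.05 in limma, adjusted by Benjamini-Hochberg over all 45037 probe sets, and the probe set with the highest mean stood for its gene.

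The targeted gene was read first. Rest gave 163.1, 216.7, 84.4 and 133.7 on Cre+ replicates 1 to 4 and 170.1, 271.8, 211.1 and 198.3 on control replicates 1 to 4. The groups overlapped, with a log2 fold change of -0.51 (SE 0.25, two-sided exact permutation p = 0.143, n = 4 per group, smallest possible 0.0286). Some arrays differed in ways that the genotype label does not explain. Control replicates 2 and 3 had the Xist signal of females, and the other 6 arrays that of males. Cre+ replicates 1 and 2 carried an excess of mesenchyme transcripts, with Col3a1 intensities of 4864 and 4571 against 114.7 to 555 on the other 6 arrays.

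Of the 8 genes, 1 was called higher in Cre+ brain and 0 lower. Over all 18193 genes, 0.214% were called higher and 0.011% lower. The gene called was Csf1r, the receptor. The median log2 fold change of the 8 genes was 0.42, against -0.0014 over all genes, and 7 of the 8 lay above 0. At an unadjusted p under 0.05, 3 of the 8 were higher (Csf1r, Csf1 and Irf8), as were 3.94% of all genes. By probe set, 2 of 25 were called higher, both of Csf1r, and 0 lower, where 0.133% and 0.00666% of all probe sets were. Probe sets of 1 gene read the same RNA and are not independent of each other.

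**Figure D1:**
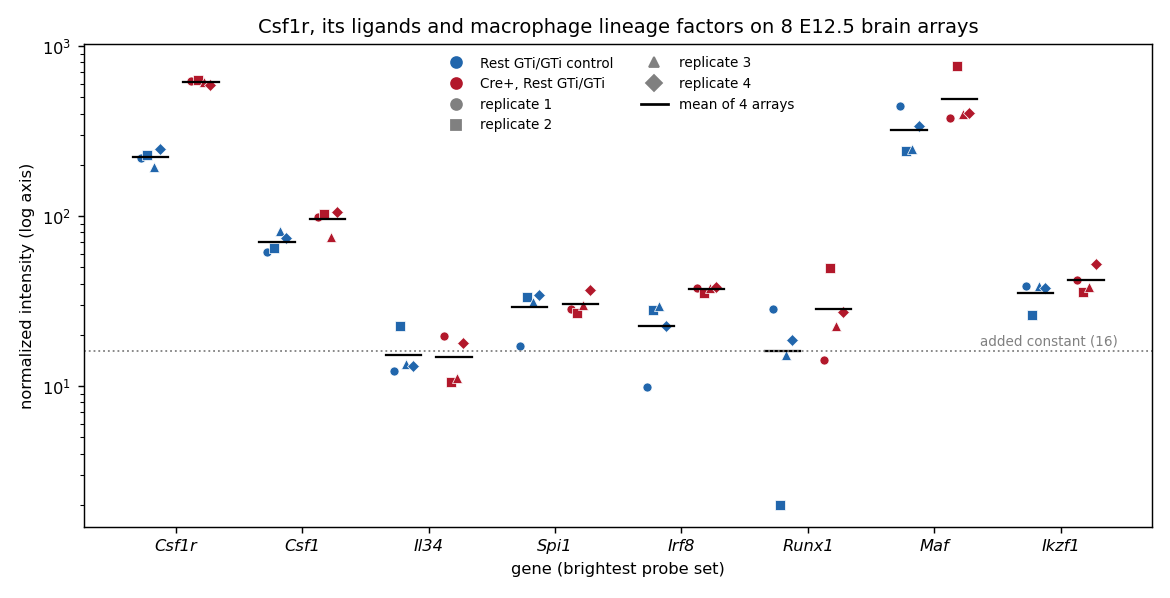
Normalized intensity (log axis) of the brightest probe set of each of the 8 genes on the 4 control arrays (blue) and the 4 Cre+ arrays (red), with marker shapes for the replicate numbers, black lines for the means and a dotted line at the added constant of 16. The groups are apart for Csf1r, where the lowest Cre+ array reads 590.6 and the highest control 249, and for Irf8, where they read 35.4 and 29.6.

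Sequence upstream of the start site was searched for 4 of the genes (Csf1, Irf8, Runx1 and Ikzf1), in 7 windows of 250 bases from RefSeq on GRCm38.p6. Csf1r was not among the genes searched, so the counts of matches below do not cover it. The window of Irf8 at chr8:120736108-120736357 (plus strand) is shown because Irf8 was the only member besides Csf1r whose brightest probe set separated the groups. Capitals mark matches to TTCNNNGAA, the gamma-activated pattern that STAT proteins are known to bind.

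Irf8 upstream window: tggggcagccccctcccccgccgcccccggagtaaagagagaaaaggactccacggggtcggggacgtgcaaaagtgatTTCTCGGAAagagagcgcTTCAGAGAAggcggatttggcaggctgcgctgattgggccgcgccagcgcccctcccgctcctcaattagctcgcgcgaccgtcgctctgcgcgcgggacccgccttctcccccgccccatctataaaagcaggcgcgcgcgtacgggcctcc

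The matches in the Irf8 window begin 171 and 153 bases before the start site, and 7.02% of all 32851 windows of this length hold that pattern. It was absent from the other 6 windows of these genes. The PU.1 core GAGGAA, searched on both strands, was found in 1 of the 7, a Runx1 window, 46 bases before the start site, and in 23.3% of all windows. Neither the RUNX core TGTGGT (14% of all windows) nor the left and right parts of the REST binding element, TTCAGCACC (0.301%) and GGACAGC (5.28%), occurred in the 7 windows. A match is a description of the letters and not evidence that a protein binds there.

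Csf1r was higher in Cre+ brain on 2 of its 3 probe sets. On the brightest, 1419872_at, the intensity was 619, 628.8, 617.4 and 590.6 on Cre+ replicates 1 to 4 and 217.9, 227.8, 193.5 and 249 on control replicates 1 to 4. Every Cre+ array lay above every control, and the 4 arrays of each group lay close together. The means were 614 ± 16.4 and 222 ± 23.1 (SD, n = 4), a log2 fold change of 1.41 (SE 0.08, 95% interval 1.22 to 1.60, limma adjusted p = 0.00177), or 2.65 fold. Probe set 1419873_s_at, which can hybridise with several transcripts, read 197.5, 179.9, 212.7 and 165.2 against 90.5, 75.9, 94.3 and 102.1. Its groups were also apart, with a log2 fold change of 0.94 (SE 0.10, limma adjusted p = 0.0156). That call was less stable and was lost in 14 of 22 alternatives. Among them was the removal of any 1 array other than Cre+ replicate 4 or control replicate 4. After those removals the limma adjusted p reached at most 0.0769 and the change stayed at 0.87 to 0.96.

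The remaining Csf1r probe set did not separate the genotypes. On 1423593_a_at the intensity was 79.8, 97, 98.5 and 111 in Cre+ brain and 89.9, 47.9, 70.3 and 59.3 in controls. Control replicate 1 lay above Cre+ replicate 1, and the log2 fold change of 0.46 (95% interval 0.10 to 0.82) was not called (limma adjusted p = 0.63). The 3 probe sets thus differed in the size of the change, and the mean of their log2 values gave 0.94, which was still called. Which Csf1r transcripts each one reads was not determined.

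The Csf1r difference was about as large on the arrays without an excess of mesenchyme transcripts. Cre+ replicates 3 and 4 against the 4 controls gave 1.39, though with those 2 arrays the adjusted p was 0.0669. Against the 2 male controls alone the gene was still called. The call was also lost when the spread was estimated for each probe set and group alone (adjusted p = 0.174) and with no scaling between arrays (1.47, adjusted p = 0.117). Over all genes, 39 were called higher in the main fit. With Cre+ replicates 3 and 4 alone it was 0, with separate spreads 0 and with no scaling 2. In bulk tissue, more cells that express a gene and more of its RNA in each cell cannot be told apart.

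Neither ligand gene was called. Csf1 read 98.9, 102.1, 75 and 105.9 on the Cre+ arrays and 61.3, 64.7, 81.6 and 74.2 on the controls for its brightest probe set, 1460220_a_at. Cre+ replicate 3 lay within the control range and the other 3 above it. The log2 fold change was 0.36 (95% interval 0.10 to 0.63, limma adjusted p = 0.593). The other 3 Csf1 probe sets gave 0.11, -0.12 and 0.33, each with overlapping groups, and the last of them had a mean below 16. Csf1 averaged over its 4 probe sets gave 0.17.

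Il34, the other ligand gene, was near the limit of the arrays. Its single probe set read 19.6, 10.5, 11.2 and 18 in Cre+ brain and 12.2, 22.5, 13.4 and 13.1 in controls. High and low arrays occurred in both groups, and the log2 fold change was -0.02 (95% interval -0.34 to 0.30). At a mean intensity of 15.1 a change in Il34 could not be read with confidence.

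Among the transcription factor genes, Irf8 separated the genotypes on its brightest probe set. Irf8 encodes an interferon regulatory factor needed for monocytes and microglia, and 1416714_at read 37.5, 35.4, 37.5 and 38.3 on the Cre+ arrays and 9.9, 28.1, 29.6 and 22.6 on the controls. All 4 Cre+ arrays lay above the controls and close to each other, whereas control replicate 1 lay far below the other controls. The log2 fold change of 0.50 (SE 0.17, 95% interval 0.12 to 0.88) was not called (limma adjusted p = 0.614), and it was 0.32 without control replicate 1 and 0.75 against the 2 male controls alone, again without a call. The dimmer probe set 1448452_at gave 0.55 with overlapping groups and a mean below 16.

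Of the 8 genes, 2 (Csf1r and Irf8) had every Cre+ array above every control, which was the case for 2.48% of all genes. Of the 25 probe sets it was 6, against 1.87% of all probe sets, made up of 2 of Csf1r, 1 of Irf8, 1 of Runx1 and 2 of Maf. None had every Cre+ array below the controls. In all, 23 of the 25 gave a log2 fold change above 0, and 12 were higher at an unadjusted p under 0.05, as were 3.22% of all probe sets. All of these 12 but the 2 of Csf1r were without an adjusted call.

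**Figure D2:**
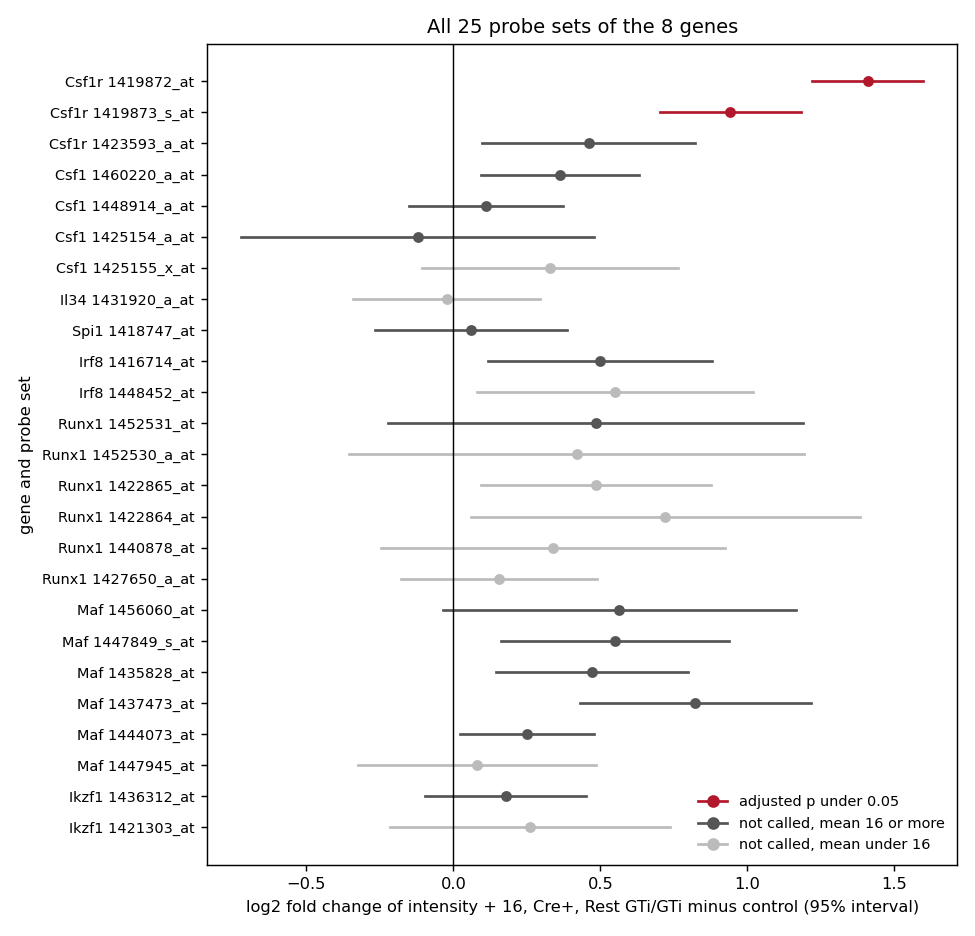
Log2 fold change of the intensity plus 16 (Cre+ minus control) with its 95% interval from limma, for each of the 25 probe sets, n = 4 arrays per group. Red marks an adjusted p under 0.05, dark grey the other probe sets with a mean of 16 or more, light grey those below 16, and only the first 2 Csf1r probe sets are red.

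Spi1, which encodes PU.1, did not separate the genotypes. The intensity was 28.5, 27, 30.1 and 36.6 in Cre+ brain and 17.2, 33.6, 31.2 and 34.5 in controls. The groups overlapped almost fully, and control replicate 1 was the lowest array. The log2 fold change was 0.06 (95% interval -0.27 to 0.39, limma adjusted p = 0.975), so on the plus-16 scale the interval allows up to 1.31 fold. Ikzf1, which encodes the lymphoid and myeloid factor Ikaros, read 41.9, 35.9, 38.4 and 52.1 against 38.8, 26.2, 38.8 and 37.5. Here too the groups overlapped, with a log2 fold change of 0.18 (95% interval -0.09 to 0.45, and 0.09 without control replicate 2), and the dim probe set 1421303_at gave 0.26.

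Runx1, needed for the emergence of blood progenitors, was dim on all 6 of its probe sets, 5 of which had a mean below 16. The brightest, 1452531_at, read 14.3, 49.7, 22.6 and 27.3 in Cre+ brain and 28.5, 2, 15.2 and 18.7 in controls. The highest array was Cre+ replicate 2 and the lowest control replicate 2, and the groups overlapped. The log2 fold change of 0.48 had a 95% interval of -0.22 to 1.19 (limma adjusted p = 0.822). It was 0.28 without Cre+ replicate 2 and 0.23 without control replicate 2, and 0.12 against the 2 male controls alone. Probe set 1422865_at read 12.1, 27.7, 12.8 and 16.6 against 6.5, 10.8, 2.7 and 10.6, with the groups apart but every control under 16. All 6 gave a log2 fold change above 0, from 0.15 to 0.72, and Cre+ replicate 2 was the highest array on 4 of the 6.

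Maf, which encodes a large Maf factor of macrophages that is also active in lens and other tissues, was above 16 on 5 of its 6 probe sets. The brightest, 1456060_at, read 377.7, 762.8, 397.3 and 404.2 in Cre+ brain and 442.7, 242.5, 248.3 and 339.4 in controls. Cre+ replicate 2 stood far above the other 7 arrays, while control replicate 1 exceeded the remaining 3 Cre+ arrays. The log2 fold change was 0.56 (95% interval -0.04 to 1.16, limma adjusted p = 0.746), 0.33 without that replicate 2 and 0.25 against the 2 male controls alone.

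A dimmer Maf probe set gave a clearer separation. On 1437473_at the intensity was 67.6, 109.2, 60.6 and 69.3 in Cre+ brain and 42.7, 36.1, 25.2 and 39.5 in controls. Every Cre+ array lay above every control, yet the log2 fold change of 0.82 (SE 0.17, 95% interval 0.43 to 1.22) was not called (limma adjusted p = 0.273). Probe set 1444073_at also separated the groups, at 41.4 to 57.9 against 31.3 to 37.7, by 0.25. The remaining 3 gave 0.55, 0.47 and 0.08 with overlapping groups. Replicate 2 of Cre+ was the highest array on 5 of the 6 Maf probe sets.

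**Figure D3:**
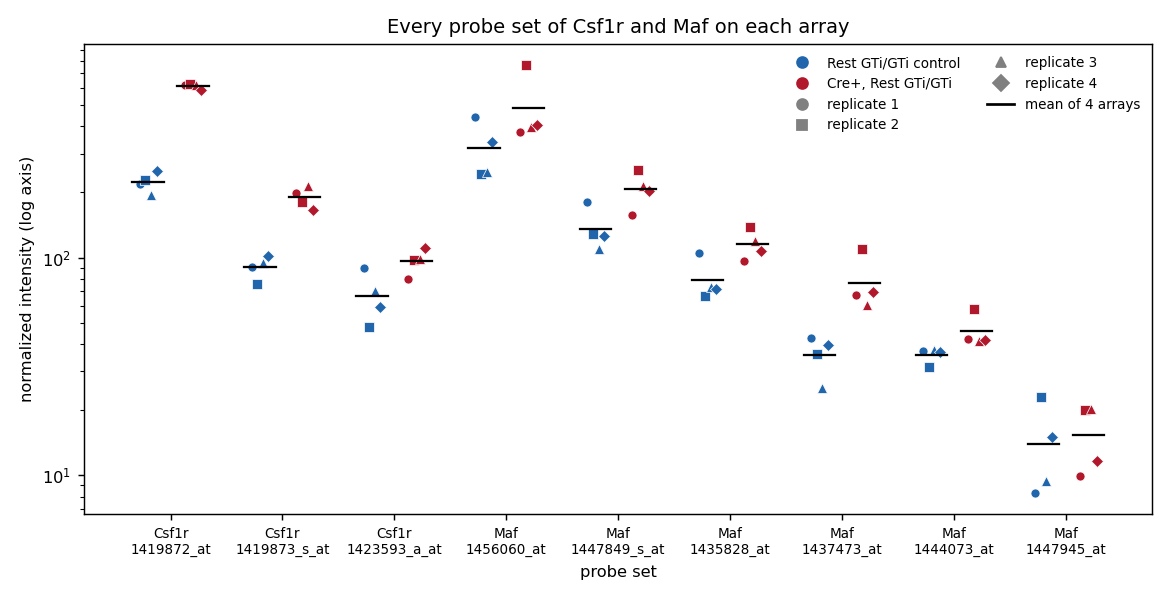
Normalized intensity (log axis) of the 3 Csf1r and 6 Maf probe sets on control (blue) and Cre+ arrays (red), with marker shapes for replicate numbers and black lines for the means of 4 arrays. The red points of Csf1r 1419872_at fall within 590.6 to 628.8, while on Maf 1456060_at replicate 2 (red square) reads 762.8 and the other 3 read 377.7 to 404.2.

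The size of the Csf1r change on its brightest probe set, 1419872_at, was then set against that of 6 other members on the same arrays, as the difference of their log2 fold changes. Il34 was left out because its mean lay below 16. Each of the 6 differences has an unadjusted two-sided exact permutation p over the arrays, which cannot fall below 0.0286 with 4 against 4. The change of Csf1r exceeded that of Csf1 by 1.04 (SE 0.16), of Spi1 by 1.35 (SE 0.16) and of Ikzf1 by 1.23 (SE 0.17), each at exact p = 0.0286. Against Irf8 the difference was 0.91 (SE 0.21, exact p = 0.0286), but 0.66 with a constant of 1 (exact p = 0.143). Against Maf it was 0.84 (SE 0.29, exact p = 0.0571) and against Runx1 0.92 (SE 0.37, exact p = 0.0571), which misses the threshold and does not show that these genes changed alike. With a constant of 1 the difference was 0.88 against Maf (exact p = 0.0571), but only 0.42 against the dim Runx1 (SE 0.82, exact p = 0.657).

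These differences depended on the Csf1r probe set. With 1419873_s_at those against Csf1, Spi1 and Ikzf1 were 0.58, 0.88 and 0.76, at the same smallest p, and that against Irf8 was 0.44 (exact p = 0.114). With 1423593_a_at, the one without a call, the differences ran from -0.10 against Maf to 0.40 against Spi1, and 0 of 6 reached an exact p under 0.05.

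Transcripts of other cells varied over the same arrays. Of 20 macrophage markers measured, 8 were called higher and 0 lower, with a median log2 fold change of 0.89. Their summed intensity was 2588 to 2884 on the Cre+ arrays and 1281 to 1501 on the controls. Cx3cr1, the fractalkine receptor of microglia, rose from 49.8 ± 9.49 to 136 ± 14.4 (SD, n = 4; limma adjusted p = 0.00863). Of the 4 brightest of the list, the complement genes C1qb and C1qa were called (1.61 and 1.36), while the protease gene Ctss (0.96) and Sall1 (-0.12), a factor also made by neural progenitors, were not. The defining markers Itgam, Cd14 and Trem2 had means below 16, and Trem2 gave -0.23. P2ry12 averaged 46.5 in Cre+ brain and 40.3 in controls, with overlapping arrays (0.16, limma adjusted p = 0.864). Mrc1 read 234.1 and 130.8 on Cre+ replicates 1 and 2, 27.6 and 33.9 on replicates 3 and 4, and 5.7 to 29.2 on controls. Tmem119 read 61.8 and 163.9 on Cre+ replicates 1 and 2 and 20 to 46.5 on the other arrays. Neither Mrc1 nor Tmem119 was called.

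The markers of other blood cells were low or not called. All 5 lymphocyte markers and 4 of 6 neutrophil markers had means below 16, and 0 of either list was called, with medians of -0.05 and 0.14. Of 4 megakaryocyte markers and 5 erythroid markers 0 were called, with medians of 0.60 and 0.08. Pf4, of megakaryocytes and some macrophages, read 443.5 and 290.9 on Cre+ replicates 1 and 2 and 93.9 to 159.9 on the other 6 arrays.

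Mesenchyme transcripts moved with single arrays. The summed intensity of 12 mesenchyme markers was 10704 and 15070 on Cre+ replicates 1 and 2, 1139 and 979 on replicates 3 and 4, and 914 to 1793 on the controls, and 0 of 12 was called. None of the 12 had a mean below 16. The array with the highest sum, replicate 2, was also the highest for Maf and Runx1, whereas replicate 1, the second highest, read 377.7 for Maf and 14.3 for Runx1, both the lowest of the Cre+ arrays. The part of mesenchyme in the Maf and Runx1 values was not tested.

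**Figure D4:**
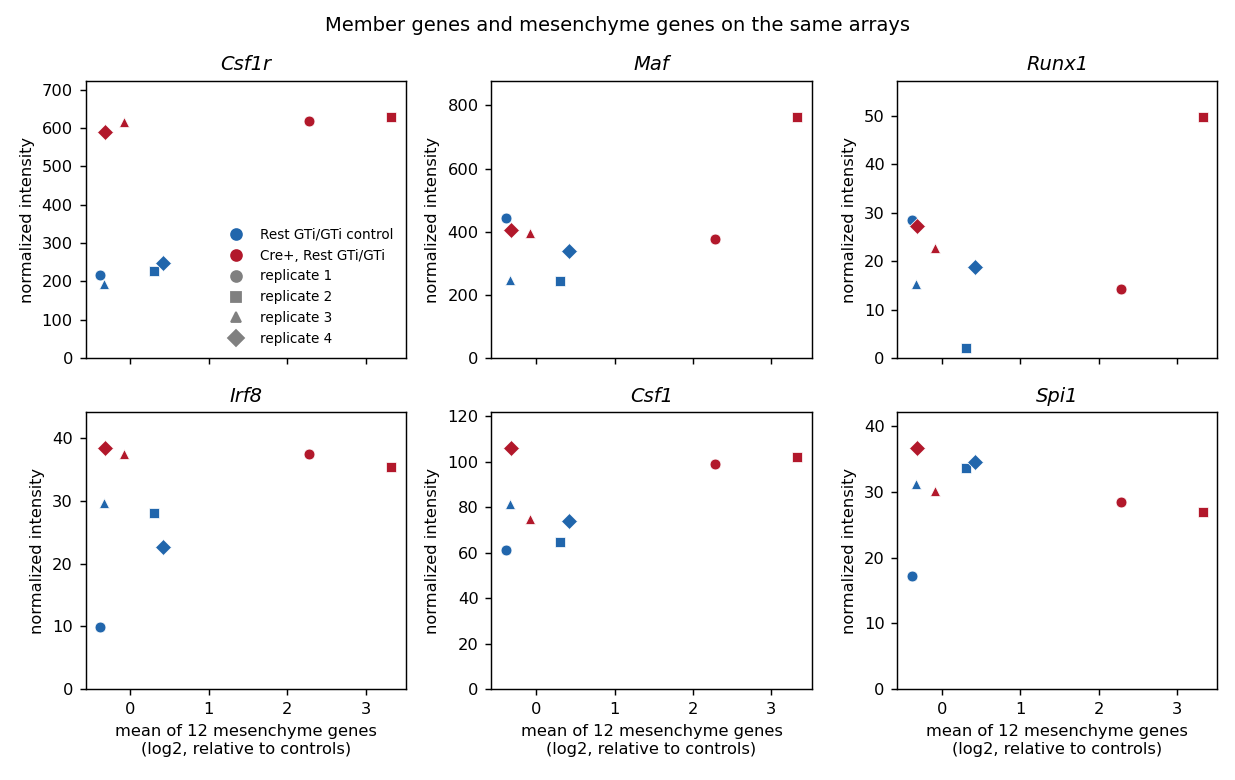
Normalized intensity of the brightest probe set of 6 genes (vertical axes from 0) against the mean of 12 mesenchyme markers on the same array (log2, relative to the control mean), for controls (blue) and Cre+ arrays (red). Csf1r reads 590.6 to 628.8 on all 4 red arrays although their mesenchyme mean runs from -0.318 to 3.327, while Maf and Runx1 are highest on the array at 3.327.

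Other lists varied as well. The 6 endothelial markers had a median of 0.40 and the 6 hindbrain Hox genes of 1.27, with 0 called in either. The Hox sum was 1612, 1001 and 477 on Cre+ replicates 3, 4 and 2 and 39.2 on replicate 1, against 40.5 to 598 on controls. The 7 markers of ventral forebrain interneurons had a median of -0.46, with 6 lower at an unadjusted p under 0.05 (3.03% of all genes were) and 0 called. The 6 neural tissue markers had a median of -0.08, the 3 sensory ganglion markers of -0.01 and the 4 lens markers of 0.04. Of the lens markers 2 had means below 16. Crybb1, also on that list, read 48.1 to 64.7 in Cre+ brain and 6.1 to 30 in controls. Its log2 fold change of 1.27 was not called (limma adjusted p = 0.17). Cryaa, Cryab and Cryba1 gave -0.0029, 0.087 and -0.10, so Crybb1 did not move with the rest of its list. Which cells its signal came from was not tested. Neural transcripts were present on all arrays, with a summed intensity of 21649 to 24901. Whether the region dissected touched the values of the 8 genes was not tested.

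Beyond the receptor and its ligands, 1 gene of the pathway was called, which does not show that the others were unchanged. Of 19 genes of Csf1r signalling that were measured, 1 was called higher and 0 lower, and the median log2 fold change was 0.08. At an unadjusted p under 0.05, 3 were higher and 1 lower, where 3.94% and 3.03% of all genes were. The gene called was Tyrobp, which encodes the adaptor DAP12, known to act beside several receptors of myeloid cells. Tyrobp read 203.7, 236.8, 239 and 191.3 in Cre+ brain and 70, 65.1, 52.6 and 60.1 in controls. The groups were far apart, with a log2 fold change of 1.58 (SE 0.10, limma adjusted p = 0.00243). The call of Tyrobp was lost in 5 of 24 alternatives, with an adjusted p of at most 0.0907, while its change stayed at 1.26 to 1.80. Plcg2, a phospholipase downstream of immune receptors, gave 0.47, the adaptor Shc1 0.45 and the kinase subunit Pik3cd -0.22, and none was called.

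The genes that bind or cut CSF1R and its ligands, Sdc1, Ptprz1 and Adam17, gave 0.24, -0.20 and -0.0054, with 0 of 3 called. PTPRZ1 and syndecan 1 are known to bind IL-34, and ADAM17 sheds the receptor. Of 9 genes for other colony-stimulating factors and their receptors 0 were called, and their median was -0.09. The smallest p among them was that of Il3ra, an interleukin receptor subunit, which read 10.5, 24.6, 6.1 and 20.2 in Cre+ brain and 41.4, 31.1, 38 and 26.7 in controls. These arrays did not overlap, and the log2 fold change was -0.71 (SE 0.20, limma adjusted p = 0.491). Of all 18193 genes, 392 had every Cre+ array below every control.

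Further factors of macrophage differentiation were not called either. Of 21 measured, 0 passed the test, the median was 0.30, and 6 were higher at an unadjusted p under 0.05, 0 lower. Over all genes 3.94% were higher at that threshold and 3.03% lower. Cebpa, a factor of granulocytes and macrophages, read 39, 29.8, 53.2 and 48 in Cre+ brain and 8.2, 28.1, 13 and 19.8 in controls. All 4 lay above the controls, with a log2 fold change of 0.83 (SE 0.20, limma adjusted p = 0.387). Id2, also made by neural progenitors, gave 0.32, Mef2c 0.31 and Tfec 0.65, the last with a control mean of 1.91.

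Factors of blood stem cells and progenitors had changes on both sides of 0. Of 14 measured, 0 were called, and the median was 0.05. Tal1, a factor of early blood that is also used by neurons of the midbrain, read 560.8 to 707.9 in Cre+ brain and 717.3 to 773.4 in controls. The groups did not overlap, with Cre+ below as in 392 of all 18193 genes, and the log2 fold change was -0.22 (limma adjusted p = 0.675). Gata2 gave -0.18, Lyl1 0.30 and Runx3 -0.38.

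The genes whose values followed Csf1r most closely were found among 9804 genes with a mean above 100, by Pearson's r of the log2 values with 1419872_at over the 8 arrays. They were C1qb (r = 0.992), Fcer1g (0.992), Lgmn (0.989), Tyrobp (0.989) and Rnase4 (0.986). With 4 arrays in each of 2 separate groups, such an r largely restates the difference between genotypes, and it is given as a description. All 5 were called higher, by 1.61, 1.20, 0.81, 1.58 and 1.14 on the log2 scale. C1qb read 238.2 to 296.5 in Cre+ brain and 65.6 to 82.8 in controls.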

How the data were processed

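Brain RNA of 4 Cre+, Rest GTi/GTi and 4 control arrays was compared. The authors' methods name RMA (version not given) and a log2 scale before a t-test adjusted by Benjamini-Hochberg, but the deposited values are intensity values on a linear scale with unequal distributions between arrays (medians 40.9 to 68). Which step made them is not stated. They were quantile normalized here, 16 was added and log2 taken. Of 45101 probe sets 64 controls were left out. Of the rest, 34945 had 1 gene in the platform annotation, 932 several and 9160 none. The mean of 30.6% lay below 16. Arrays have no read depth, and their number limits the precision. limma 3.58.1 (R 4.3.3) tested all probe sets together, with genotype as the only term, after a trial on simulated data.

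The members, gene lists and tests were chosen with earlier results of these data known. Every member probe set is given, of each pathway list up to 4 genes with the smallest p, and of marker lists the brightest and those near 0. Pf4, Cx3cr1, Col3a1, P2ry12, Mrc1, Tmem119 and Crybb1 were chosen after their values were seen. Some listed genes are not analysed here. No pairing of the arrays by replicate number was seen. Deviations correlated by -0.13 to 0.0068 within a number and by -0.061 to 0.11 between numbers. Of the 8 arrays, 0 correlated best with its own number. With so few arrays this check cannot exclude a weak pairing. Alternatives were other t-tests, scalings, constants, filters, choices of probe set, a replicate block, sex and subsets of arrays. The comparison of Csf1r with other members, and its repeat on each Csf1r probe set, were added after the data were seen.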

Additional observations from a re-analysis of the deposited data

Results flagged for a closer look

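In each of 50 sets of 4 arrays (25 probe sets in each group) the highest and the lowest array were examined for a gap to the other 3 that was large for the range, a test by which chance marks about 1 in 20 sets. It marked 9 values. For Maf, Cre+ replicate 2 read 762.8 on 1456060_at against 377.7 to 404.2 on the other 3, and 57.9 on 1444073_at against 41.4 to 42.5. Control replicate 2 read 31.3 on that probe set against 37 to 37.7 on the other controls, and control replicate 1 read 104.6 on 1435828_at against 66.9 to 73. For Csf1, Cre+ replicate 4 read 33.8 on 1448914_a_at against 50.4 to 53.6, and control replicate 2 read 54.2 on 1425154_a_at against 23.5 to 25.9. Il34 read 22.5 on control replicate 2 against 12.2 to 13.4. Runx1 read 9.9 on control replicate 4 for 1440878_at against 0.7 to 2, all below 16. Ikzf1 read 26.2 on control replicate 2 against 37.5 to 38.8. Control replicate 2 accounts for 4 of the 9, and no Csf1r, Spi1 or Irf8 probe set was marked.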

How the results depend on the processing

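Csf1r was higher under all 24 alternatives, by 0.94 to 1.47, and by 1.35 to 1.46 when each array in turn was left out, with the call kept in each of those 8. Its call was lost under 4: the Welch correction (1.41, adjusted p = 0.174), no scaling (1.47, adjusted p = 0.117), the replicate block (1.41, adjusted p = 0.06) and Cre+ replicates 3 and 4 alone (1.39, adjusted p = 0.0669). Under these 4 the count of member genes called higher fell from 1 to 0, that of member probe sets from 2 to 0, that of Csf1r signalling from 1 to 0 and that of macrophage markers from 8 to 0. Over all genes the count called higher fell from 39 to 0, 2, 0 and 0, in the same order, so few genes of any kind were called there. Among the members, the replicate block changed no call but those of the 2 Csf1r probe sets, with a limma adjusted p of 0.227 for 1419873_s_at. Member probe sets called higher were 1 against only the 2 male controls, with the equal-variance t-test, with an Eif2s3y covariate, or with Cre+ replicates 1 and 2 alone, and 1 to 2 when each array was left out, with the call of 1419873_s_at lost without Cre+ replicate 1, 2 or 3 or control replicate 1, 2 or 3. Macrophage markers called were 5 with the equal-variance t-test or Eif2s3y as a covariate and 3 against the 2 male controls, where Csf1r signalling had 0. No member was called lower under any alternative.

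Signs turned for 8 values, none of them called in any setting. Spi1 became -0.025 from Cre+ replicates 1 and 2, -0.00012 without Cre+ replicate 4 and -0.080 without control replicate 1 (leave-one-out range -0.080 to 0.12). Il34 became 0.017 without scaling, 0.095 with Eif2s3y as a covariate or against the male controls, and ran from -0.095 to 0.082 on leaving out each array. Csf1 1425154_a_at became 0.12 with Eif2s3y, 0.11 in the fit to male controls and 0.18 from Cre+ replicates 3 and 4, with a leave-one-out range of -0.23 to 0.10. Runx1 1427650_a_at became -0.085 and Runx1 1452530_a_at -0.23 (0.42 with all arrays) with Cre+ replicates 1 and 2 alone. Maf 1447945_at became -0.012 without control replicate 1 (leave-one-out range -0.012 to 0.22). Adam17 became 0.059 without scaling, 0.0073 with cyclic loess, 0.12 with Cre+ replicates 1 and 2 alone and 0.073 as the mean of its probe sets, and ran from -0.068 to 0.090 on leaving out each array. Lyl1 became -0.020 (0.30 with all arrays) with Cre+ replicates 3 and 4 alone. The difference between the change of Csf1r and that of Irf8, Maf or Runx1 turned to -0.039, -0.10 and -0.025 when Csf1r was read on 1423593_a_at. The causes were not tested. Of the 25 member probe sets 10 had a mean below 16, where small changes could not be read.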
